A study of Homo sapiens with 6 samples.

Results

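Chromatin remodellers of the SWI/SNF, ISWI, CHD and INO80 classes were followed in HEK293, a cell line of human embryonic kidney origin, after transfection with a SNRK plasmid or its parent plasmid. Members were chosen by target name in the deposited probe table, as every name beginning with SMARC, or with CHD and a digit, and the named subunits and partners of these complexes. This gave 45 of the 42764 target names, read by 62 of the 48701 probes of the array. In the SNRK group the cells carried SNRK-pEGFPN3, which carries human SNRK, a protein kinase of the AMPK-related family, in a vector for green fluorescent protein fusions. In the GFP group they carried pEGFPN3, the same vector without SNRK, so both groups had been transfected. RNA was extracted 48 hours later, and each group had 3 Illumina bead arrays, called here SNRK 1 to 3 and GFP 1 to 3 after the numbers in the labels. Transfection was transient, the share of cells that took up plasmid is not given in the sources used here, and nothing in the labels says that replicates came from separate cultures. The p-values therefore rest on differences among these arrays alone, which may be technical.

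Chromatin remodellers use the energy of ATP hydrolysis to slide, evict or rebuild nucleosomes, and each complex is built around an ATPase of the SNF2 family. SWI/SNF complexes contain either SMARCA4 or SMARCA2, SMARCC and SMARCD subunits, and further subunits that set apart the BAF, PBAF and non-canonical BAF forms. SMARCB1 and SMARCE1 belong to BAF and PBAF and are absent from non-canonical BAF. ISWI enzymes space nucleosomes, and CHD3, CHD4 and CHD5 are alternative ATPases of the NuRD complex, which also carries histone deacetylases. The INO80 class includes SRCAP, which places the histone variant H2A.Z into nucleosomes. The comparison asks how raised SNRK alters the transcripts of these machines.

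Between 15732 and 16190 probes were detected (detection p under 0.01) on the SNRK arrays and between 15133 and 15685 on the GFP arrays, and the median signal lay between 93.8 and 102.0 on every array. The ratio of the median detected to the median undetected signal was 2.84 to 2.98 in the SNRK group and 2.99 to 3.29 in the GFP group. The groups did not overlap in either the number of detected probes or this ratio, and the part of these differences in the results was not tested. The SNRK probe read 485, 460.2 and 458 on SNRK 1 to 3, against 350, 382 and 372 on GFP 1 to 3 (log2 change 0.44 ± 0.09 SE, limma adjusted p = 0.0219), with 0.29 on the authors' processed values. Whether this probe can read the plasmid's transcript is not given in the sources used here. Of 9 genes listed as features of HEK293, 7 were detected on every array, among them VIM, KRT18 and CDH2, while the renal progenitor genes PAX2 and LHX1 were detected on 2 arrays and 1 array at most. Of 16 markers of other cell types on the array, 13 were detected on no array, MYH7 on 1, and ALB and PECAM1 on all 6 at signals of at most 130.4 and 123. The summed signal of these 16 markers was 1518 to 1679 on the SNRK arrays and 1509 to 1599 on the GFP arrays.

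A probe was tested if every array of the SNRK group or every array of the GFP group detected it. This kept 14964 probes, among them 47 remodeller probes of 40 targets. Signals were background-corrected, quantile normalized and put on a log2 scale, and a probe with a limma adjusted p under 0.05 over all kept probes is said to have risen or fallen. In SNRK cells 9 remodeller probes rose and 1 fell. These are 10 of 47 probes (21.3%), against 12.9% of all kept probes, where 6.88% were higher and 6.06% lower. In bulk RNA a lower level in every cell and a smaller share of expressing cells cannot be told apart. Counted by gene at the kept probe of highest mean signal, 7 of 40 rose and 1 fell (20%, beside 12.9% of all kept probes). The fall is at SMARCC2, whose other kept probe rose, so this count gives no direction for that gene. BAZ1A is not among the 7, as its probe that rose is not its brightest.

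The 9 probes that rose belong to SMARCC1, SMARCC2, SMARCD1, SMARCD2, BCL7A, BCL7B, SS18, BRD7 and BAZ1A. All but BAZ1A code for SWI/SNF subunits. Of the 47 kept probes, 10 were of SWI/SNF core subunits and 10 of subunits grouped as BAF. A further 5 were grouped as PBAF or non-canonical BAF, and 2 were of SWI/SNF ATPases. The other kept ATPase probes were 8 of the CHD family, 2 of the INO80 class, 2 of other SNF2 proteins and those of SMARCA1 and SMARCA5. None of the 9 codes for an ATPase, where 6.88% of all kept probes were higher. With so few ATPase probes, this is not a result about the ATPases. The ATPase genes CHD4 and SRCAP lay just outside the threshold (limma adjusted p = 0.0570 and 0.0642). The single fall was at another probe of SMARCC2. The median log2 change of the 47 probes was 0.04, beside 0.00 for all kept probes, and it was -0.02 with median scaling in place of quantile normalization. The median size of the change without regard to sign was 0.22, beside 0.16 for all kept probes, with median standard errors of 0.11 and 0.10. The values of the 3 SNRK arrays lay apart from those of the 3 GFP arrays at 26 of the 47 probes (55.3%), 16 higher and 10 lower, where 36.4% of all kept probes did so, 18.6% higher and 17.8% lower.

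**Figure D1:**
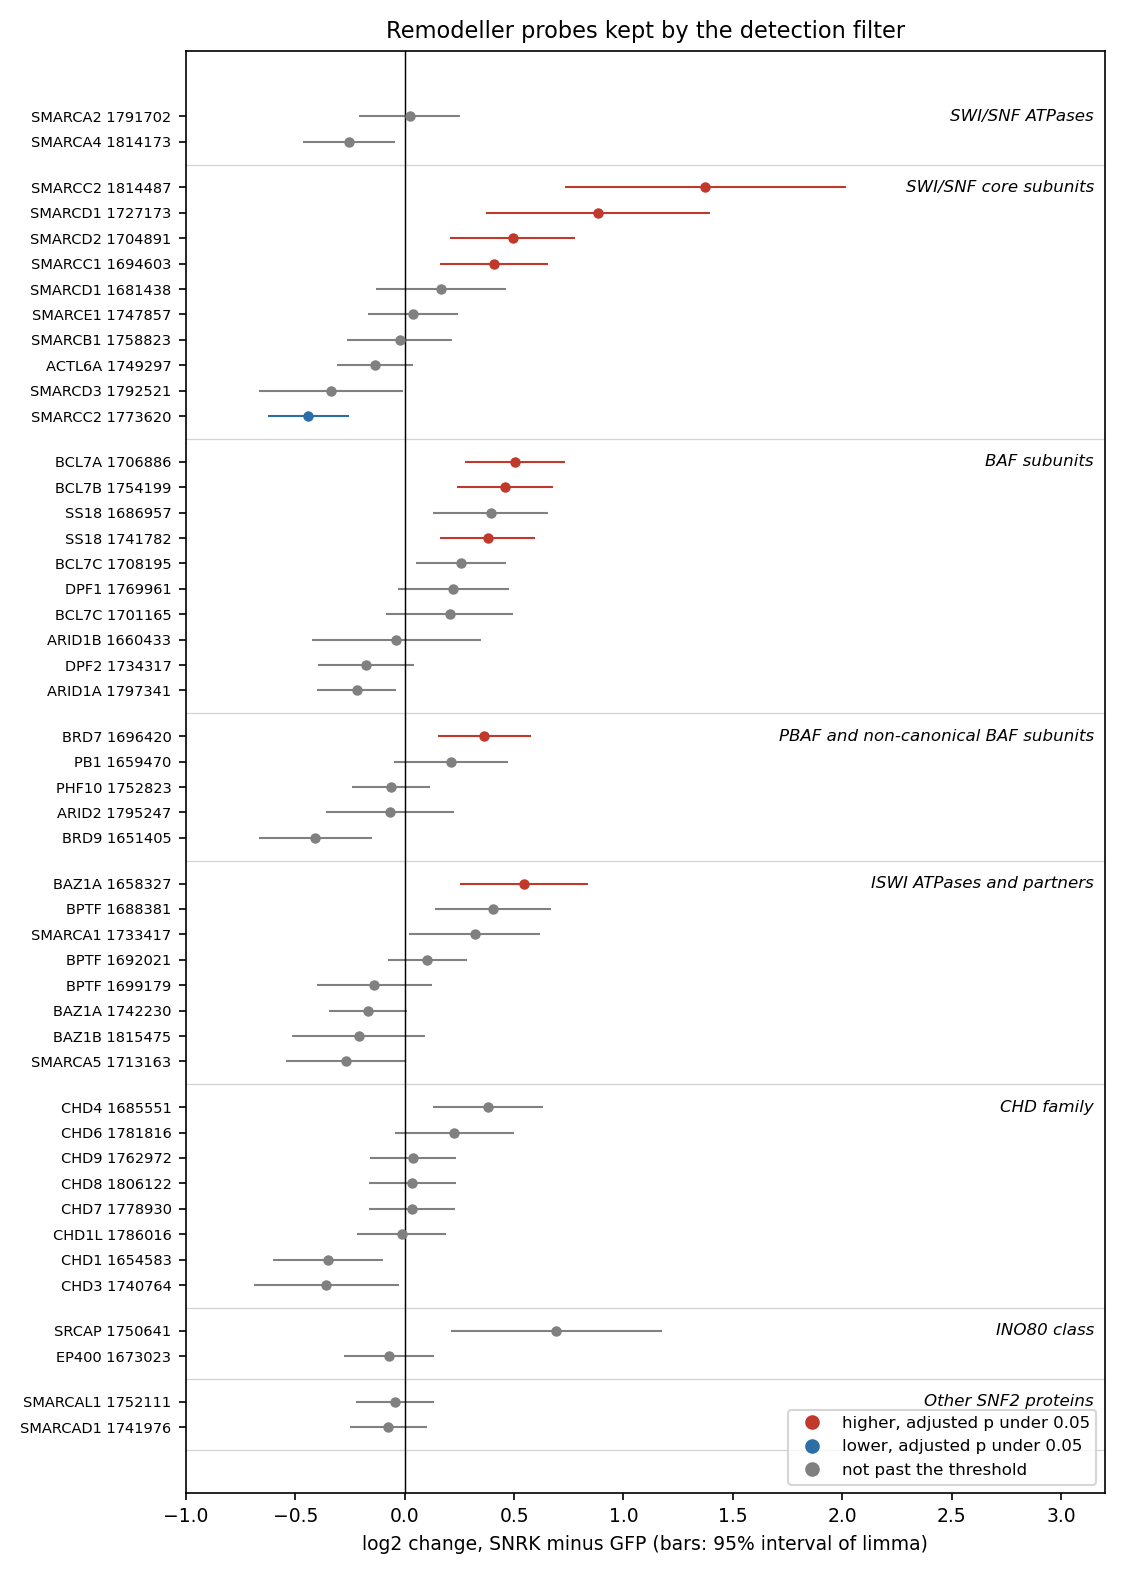
Log2 change (SNRK minus GFP, x axis) of each of the 47 kept remodeller probes, named by target and probe number on the y axis and grouped by role, with the 95% interval of the limma fit as bars. The 9 red probes rose, the 1 blue probe fell, and the grey probes did not pass the threshold.

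The 10 calls rested on particular arrays. No remodeller probe passed without GFP 1 or without GFP 2 (limma, 0 of 47 each time, with 16 and 17 at an unadjusted p under 0.05, where 21.8% and 22.8% of all probes were), and only BCL7B passed without SNRK 1. Without SNRK 2, the calls of BCL7A, BCL7B and both SMARCC2 probes were kept. Without GFP 3, 7 of the 10 calls were kept, those of BAZ1A, SMARCD2 and BRD7 being lost, and without SNRK 3, 9 were kept, that of SMARCD2 being lost. The share of all kept probes called moved too, to 2.28% without GFP 1, 1.95% without GFP 2, 2.49% without SNRK 1 and 7.18% without SNRK 2. On the values processed by the authors, 10 remodeller probes were higher and 7 lower, with 14.9% of all probes called. Without background correction 13 were higher and 5 lower, with 17.4% of all probes called.

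The arrays at the edge of each group were much the same from probe to probe. Among the 9 probes that rose, SNRK 2 was the highest SNRK array at 6 and SNRK 3 the lowest at 6, and GFP 3 was the highest GFP array at 7. Over all 1030 probes that rose, these 3 arrays held those places at 64%, 61.1% and 73.7%. SNRK 3 and GFP 3 thus mostly stood nearest to the other group, for the remodellers as for the array at large. The part of this in the results was not tested.

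**Figure D2:**
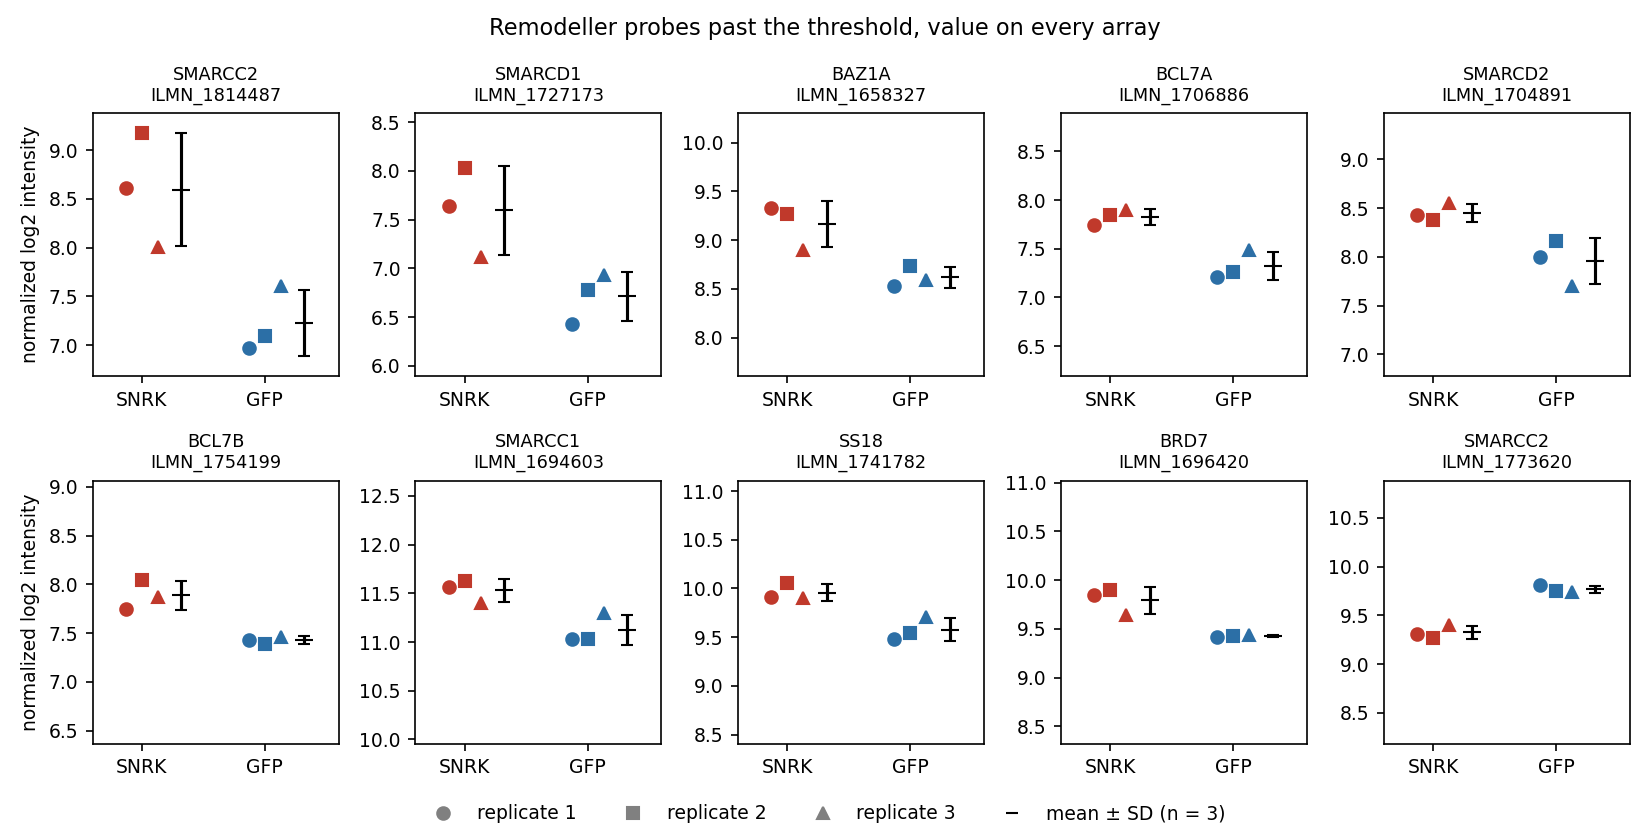
Normalized log2 intensity (y axis) on each array of the 10 remodeller probes past the threshold, with the SNRK group left of the GFP group in each panel, a marker shape for each replicate and the mean ± SD of 3 arrays in black. Every panel spans the same log2 range, and in every panel the groups do not overlap. The probes were picked on this same contrast, so the separation adds no support. Of all kept probes, 36.4% had groups that do not overlap.

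The files hold no probe sequences, so the promoters of 3 of the genes with a probe that rose are shown, those for which RefSeq lists a single start: BCL7A, BRD7 and SMARCD1. Each line gives the 120 bases before the transcription start on the gene's strand, from RefSeq in build GRCh38.p14. Capitals mark the GC box, GGGCGG or its reverse complement CCGCCC, the element bound by the SP1 family. They lie at chr12:122021764-122021883 (plus strand), chr16:50368989-50369108 (minus strand) and chr12:50085222-50085341 (plus strand).
BCL7A: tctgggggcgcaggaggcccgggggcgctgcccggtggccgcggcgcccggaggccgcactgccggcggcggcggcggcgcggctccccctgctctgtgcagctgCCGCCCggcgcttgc
BRD7: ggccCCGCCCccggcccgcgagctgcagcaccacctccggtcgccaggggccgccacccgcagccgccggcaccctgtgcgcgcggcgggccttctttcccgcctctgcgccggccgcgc
SMARCD1: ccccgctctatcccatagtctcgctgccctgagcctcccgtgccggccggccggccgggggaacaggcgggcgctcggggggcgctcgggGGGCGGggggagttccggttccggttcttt

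All 3 stretches are rich in G and C, with 82.4%, 70.8% and 70.4% over the 250 bases before the start, and each holds 1 GC box. Promoters were found for 32 of the 40 measured targets, 54 starts in all. Their median G and C content was 67.8%, beside 58% for the 35116 promoters of the table. The 54 are of genes detected here, while the 35116 were not limited to such genes. The sets are therefore unlike, for the motif shares below as well, and the part of this in the differences was not tested. Searched on both strands over 250 bases, GGGCGG was in 59.3% of the 54, beside 42.6% of all promoters, CCAAT in 27.8%, beside 32%, and TATAAA in 1.85%, beside 10.7%. In the 3 stretches shown, the GC box was the only one of these motifs present. A match says only that these letters are there.

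Neither SWI/SNF ATPase gene passed the test. SMARCA4 read 3259.6, 3026 and 3281 on SNRK 1 to 3, against 4178, 4211 and 3313 on GFP 1 to 3. The groups did not overlap, with GFP 3 close above the highest SNRK array. The log2 change was -0.25 (95% interval -0.47 to -0.04, adjusted p = 0.104), and it passed under 4 of the 10 alternatives that used all arrays. SMARCA2, the alternative ATPase, read 947, 812 and 957 in SNRK cells, against 912, 1011 and 833 in GFP cells, so that the groups overlapped. Its log2 change was 0.02 (95% interval -0.21 to 0.25, adjusted p = 0.903).

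The core subunits held 5 of the 10 calls, from 10 kept probes (50%, beside 12.9% of all kept probes). Both kept SMARCC2 probes, called in opposite directions, are among them. SMARCC1 codes for BAF155, 1 of the 2 paralogous scaffold subunits around which the complex assembles. It read 3002, 3127 and 2805 in SNRK cells, against 2285, 2261 and 2479.7 in GFP cells. The groups did not overlap, and SMARCC1 rose 1.33-fold (log2 change 0.41 ± 0.11 SE, adjusted p = 0.0424).

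SMARCC2, the paralogue that codes for BAF170, had 2 kept probes, which disagreed. The probe ILMN_1814487 read 463, 645 and 325 in SNRK cells, against 202, 209 and 261 in GFP cells. It rose 2.59-fold, the largest change of the 47 probes, with a log2 level of 8.60 ± 0.58 in SNRK and 7.22 ± 0.34 in GFP cells (SD, 3 arrays each; adjusted p = 0.0214). On the authors' processed values its log2 change was 0.78, against 1.37 here.

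The SMARCC2 probe ILMN_1773620 read 695, 685 and 745 in SNRK cells, against 1011, 976 and 891 in GFP cells. It fell 1.36-fold with a narrow spread (log2 change -0.44 ± 0.08 SE, adjusted p = 0.0154), and its adjusted p was the lowest of the 47. Another SMARCC2 probe was detected on 2 of 6 arrays and was not tested. The change at ILMN_1773620 minus that at ILMN_1814487 was -1.81 on the log2 scale. In an exact two-sided permutation test of the per-array difference between the probes, p was 0.1, the smallest that 3 arrays against 3 can give, and 0.133 adjusted over 4 probe pairs. Only pairs from genes with a probe that passed were tested, so they were picked on the same contrast. With this floor no pair could pass at 0.05, so the test cannot decide whether probes differ. Which transcripts each probe reads is not given in the files, so no direction is given for SMARCC2 as a gene.

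SMARCD1, SMARCD2 and SMARCD3 code for alternative BAF60 subunits, which link the complex to transcription factors. At its probe ILMN_1727173 SMARCD1 read 275, 343 and 209 in SNRK cells, against 163, 181 and 189 in GFP cells. It rose 1.84-fold (log2 change 0.88 ± 0.22 SE, adjusted p = 0.0385). This value depended on the processing, with a log2 change of 0.58 without background correction and 0.38 on the authors' values, where the call was lost (adjusted p = 0.0549).

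The other SMARCD1 probe, ILMN_1681438, read 191, 162 and 159 in SNRK cells, against 153, 154 and 152 in GFP cells, and had a log2 change of 0.16 (adjusted p = 0.423). The changes of the 2 SMARCD1 probes differed by 0.72 (exact permutation p = 0.1, the smallest possible). Thus 1 of the 2 SMARCD1 probes passed.

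SMARCD2 has 1 probe, which read 419, 412 and 445 in SNRK cells, against 337, 369 and 275 in GFP cells. It rose 1.41-fold (log2 change 0.49 ± 0.12 SE, adjusted p = 0.0382), with 0.31 on the authors' values, and its call was lost without any 1 of the 6 arrays. SMARCD3, the form known from heart and muscle, had a log2 change of -0.33 with overlapping groups (adjusted p = 0.155).

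The remaining core subunits did not pass. SMARCB1, a core subunit lost in rhabdoid tumours, had a log2 change of -0.02 (95% interval -0.26 to 0.22), and SMARCE1 had 0.04 (95% interval -0.17 to 0.25). ACTL6A, an actin-related subunit, had -0.14 (95% interval -0.31 to 0.04). ACTL6B, its neuronal counterpart, was detected on no array.

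Of the 10 kept probes of subunits grouped here as BAF, 3 rose and 0 fell, those of BCL7A, BCL7B and SS18, where 12.9% of all kept probes were called. The grouping does not make these genes particular to BAF, and their rise is not a result about that form. In limma 6 of the 10 had an unadjusted p under 0.05, as did 31.1% of all kept probes. The BCL7 proteins are small subunits of SWI/SNF. BCL7A read 289, 312 and 306 in SNRK cells, against 226, 227 and 246 in GFP cells, and rose 1.42-fold (log2 change 0.51 ± 0.10 SE, adjusted p = 0.0191). BCL7B read 290.4, 345 and 301 in SNRK cells, against 252, 242 and 243 in GFP cells, and rose 1.37-fold (log2 change 0.46 ± 0.10 SE, adjusted p = 0.0230). For both, every SNRK array was above every GFP array, and the BCL7A call held under all 10 alternatives that used all arrays.

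The log2 changes of BCL7A and BCL7B were smaller on the authors' values, 0.25 and 0.23. The 2 kept probes of BCL7C, the third gene of the family, had log2 changes of 0.26 and 0.21 and did not pass (adjusted p = 0.0959 and 0.303). SS18, whose fusion to SSX genes drives synovial sarcoma, rose 1.30-fold at its probe ILMN_1741782. That probe read 1016, 1111 and 1032.5 in SNRK cells, against 821, 855 and 878 in GFP cells (log2 change 0.38 ± 0.09 SE, adjusted p = 0.0369).

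The other SS18 probe read 157, 162 and 148 in SNRK cells, against 126, 135 and 133 in GFP cells. Its log2 change was 0.39 (adjusted p = 0.0577), so the SS18 probes, 1 on each side of the threshold, had changes that differed by -0.01 (exact permutation p = 1). This closeness held for the processing used here. The other probe read not far above background. Over the 16 alternatives, left-out arrays included, its log2 change ran from 0.10 to 0.46, and it passed under 2. That of ILMN_1741782 ran from 0.31 to 0.45.

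The DNA-binding subunits of BAF did not pass. ARID1A read 1214, 1274 and 1295 in SNRK cells, against 1593, 1511 and 1377 in GFP cells. The groups did not overlap, and the log2 change was -0.22 (95% interval -0.40 to -0.04, adjusted p = 0.0984). ARID1B, its paralogue, was close to background and had -0.04 (95% interval -0.42 to 0.35), a wide interval. The histone readers DPF1 and DPF2 had 0.22 and -0.18 (adjusted p = 0.209 and 0.248), and DPF3 was detected on no array.

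Among subunits of PBAF and of non-canonical BAF, 1 of 5 probes rose and 0 fell (20%, beside 12.9% of all kept probes called). BRD7, a bromodomain subunit of PBAF, read 974, 1001 and 876 in SNRK cells, against 790.1, 795 and 744 in GFP cells. It rose 1.29-fold (log2 change 0.36 ± 0.09 SE, adjusted p = 0.0383). BRD9, the related bromodomain subunit of non-canonical BAF, read 1141, 1082 and 1299 in SNRK cells, against 1759, 1696 and 1301 in GFP cells.

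The BRD9 groups touched without overlapping, SNRK 3 and GFP 3 being almost equal before normalization. Its log2 change was -0.41 ± 0.11 SE, and its adjusted p of 0.0500282 was just over the threshold. BRD9 was the probe nearest outside it and SMARCC1, at 0.0424, the nearest inside. With 1 array left out, the log2 change of BRD9 ran from -0.51 without GFP 3 (adjusted p = 0.0303) to -0.34 without GFP 1 (adjusted p = 0.175), and it passed in 2 of the 6 fits. ARID2, PB1 (the older name of PBRM1, or polybromo) and PHF10, all of PBAF, had log2 changes of -0.07, 0.21 and -0.06 and did not pass.

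In the ISWI class, 1 of 8 probes rose, that of BAZ1A, and 0 fell (12.5%, near the 12.9% of all kept probes called). Neither ATPase passed. BAZ1A codes for ACF1, which joins SMARCA5 in nucleosome-spacing complexes. At the probe ILMN_1658327 it read 705, 685 and 545 in SNRK cells, against 453, 515 and 445 in GFP cells, and rose 1.46-fold (log2 change 0.55 ± 0.13 SE, adjusted p = 0.0301). At the probe ILMN_1742230 it read 2659, 2505 and 2605 in SNRK cells, against 3039, 3094 and 2864 in GFP cells.

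There the SNRK arrays were all below the GFP arrays, with a log2 change of -0.17 ± 0.08 SE that did not pass (adjusted p = 0.179). The change at ILMN_1742230 minus that at ILMN_1658327 was -0.72 (exact permutation p = 0.1, the smallest possible). SMARCA5, the ISWI ATPase SNF2H, had a log2 change of -0.27 (95% interval -0.54 to 0.01, adjusted p = 0.170), with GFP 3 among the SNRK values. SMARCA1, the ATPase SNF2L, had 0.32 (95% interval 0.02 to 0.62, adjusted p = 0.138).

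BPTF, the largest subunit of the NURF complex, had 3 kept probes with log2 changes of 0.40, 0.10 and -0.14 and adjusted p-values of 0.0540, 0.409 and 0.449. BAZ1B, a subunit of the WICH complex with SMARCA5, had -0.21 (adjusted p = 0.311). BAZ2A, a subunit of the nucleolar complex NoRC, was detected on no array.

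**Figure D3:**
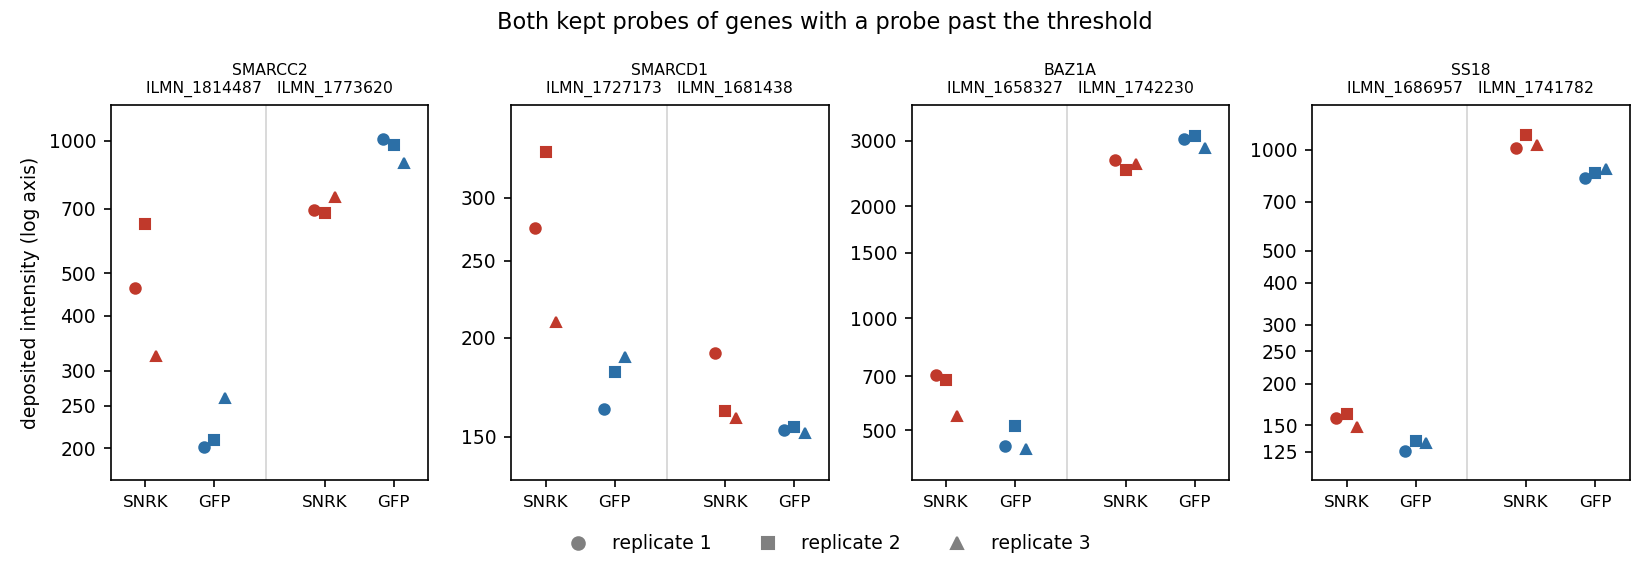
Deposited intensity on each array (y axis, log scale) of both kept probes of SMARCC2, SMARCD1, BAZ1A and SS18, named above each panel in the order left to right, with SNRK left of GFP for each probe and a marker shape for each replicate. The SMARCC2 probes moved in opposite directions, while the SS18 probes were both higher in SNRK cells, by 0.39 and 0.38 on the log2 scale after normalization. The 0.39, at the SS18 probe of lower signal, ran from 0.10 to 0.46 over the alternatives.

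None of the 8 kept CHD probes passed in limma, and 3 had an unadjusted p under 0.05, a level that 31.1% of all kept probes reached. CHD4, the main NuRD ATPase of many cell types, read 727, 746 and 623 in SNRK cells, against 541, 568 and 583 in GFP cells. The groups did not overlap, and the log2 change was 0.38 ± 0.11 SE (adjusted p = 0.0570), past the threshold under 5 of 10 alternatives with all arrays. CHD3, its paralogue, was close to background, was detected on 2 of 3 SNRK arrays and had -0.36 with overlapping groups (adjusted p = 0.135). CHD5, the neuronal form, was detected on no array.

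CHD1, which binds the histone mark H3K4me3 at active promoters, read 1006, 833 and 1054 in SNRK cells, against 1189.5, 1333 and 1181 in GFP cells. Its log2 change was -0.35 ± 0.11 SE (adjusted p = 0.0705). CHD6 had 0.23 (95% interval -0.04 to 0.50). CHD1L, CHD7, CHD8 and CHD9 had changes between -0.01 and 0.04, with 95% intervals that together ran from -0.22 to 0.24. CHD2 was detected on no array.

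SRCAP, an ATPase that places H2A.Z into nucleosomes, read 215, 250.2 and 157 in SNRK cells, against 151, 147 and 147 in GFP cells. All 3 SNRK arrays were higher, by unequal amounts, and the log2 change of 0.69 ± 0.21 SE did not pass (adjusted p = 0.0642). With 1 array left out it ran from 0.49 without SNRK 2 (adjusted p = 0.142) to 0.96 without SNRK 3 (adjusted p = 0.00485), the 1 of these 6 fits in which it passed. On the authors' values it was 0.25. EP400, the ATPase that works with the TIP60 acetyltransferase, had -0.07 (95% interval -0.28 to 0.13). SMARCAL1 and SMARCAD1, enzymes of replication fork and DNA end repair, had -0.05 and -0.08, and no interval reached beyond -0.25 or 0.13.

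The table lists INO80 under its older name INOC1, which the choice of members by name did not take in. Its probe ILMN_1678362 read 306, 277 and 311 in SNRK cells, against 409.8, 415 and 349 in GFP cells, and fell 1.43-fold (log2 change -0.51 ± 0.11 SE, adjusted p = 0.0271). Its other kept probe had -0.07 (adjusted p = 0.690). The call was lost without SNRK 1, SNRK 2, GFP 1 or GFP 2, and the log2 change was -0.29 on the authors' values.

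The 15 remodeller probes that were not tested read between 73.9 and 129.7, and 12 of them were detected on no array. They leave ACTL6B, DPF3, BAZ2A, CHD2 and CHD5 without a value. The other 10 belong to genes with another kept probe.

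Among 59 partner genes of the same complexes outside the member list, 55 were measured, and 4 rose and 5 fell (16.4%, near the 12.9% of all kept probes), with a median log2 change of -0.03. Of 10 NuRD subunits, 2 rose and 0 fell (20%, beside the same 12.9%). MTA1, a NuRD scaffold subunit, read 2683, 2503 and 2428 in SNRK cells, against 1394, 1424 and 1665 in GFP cells, and rose 1.80-fold (log2 change 0.85 ± 0.12 SE, adjusted p = 0.00774). This call held under all 16 alternatives, each left-out array included. The remodeller call that held most often, that of BCL7A, did so under 13.

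GATAD2B, another NuRD subunit, rose by 0.95 on the log2 scale (adjusted p = 0.0230). Of 24 subunits of INO80, SRCAP and TIP60 complexes, 2 rose and 2 fell (16.7%, again near the share of all kept probes). INO80E, listed as CCDC95, rose by 0.85 (adjusted p = 0.0213), while TRRAP, a large scaffold of acetyltransferase complexes, fell by 0.36 (adjusted p = 0.0261). Of 10 other SNF2 genes, 2 fell and 0 rose (20%, beside 12.9% of all kept probes). RAD54L2 fell by 0.61 (adjusted p = 0.0114). ERCC6, a gene of transcription-coupled repair, fell by 0.41 (adjusted p = 0.0178), but its probe was close to background and the call was lost on the authors' values and without background correction, where the smallest log2 change was -0.09. Of 6 further SWI/SNF genes, 1 fell and 0 rose (16.7%, near the share of all kept probes), and of 5 ISWI partners none passed.

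**Figure D4:**
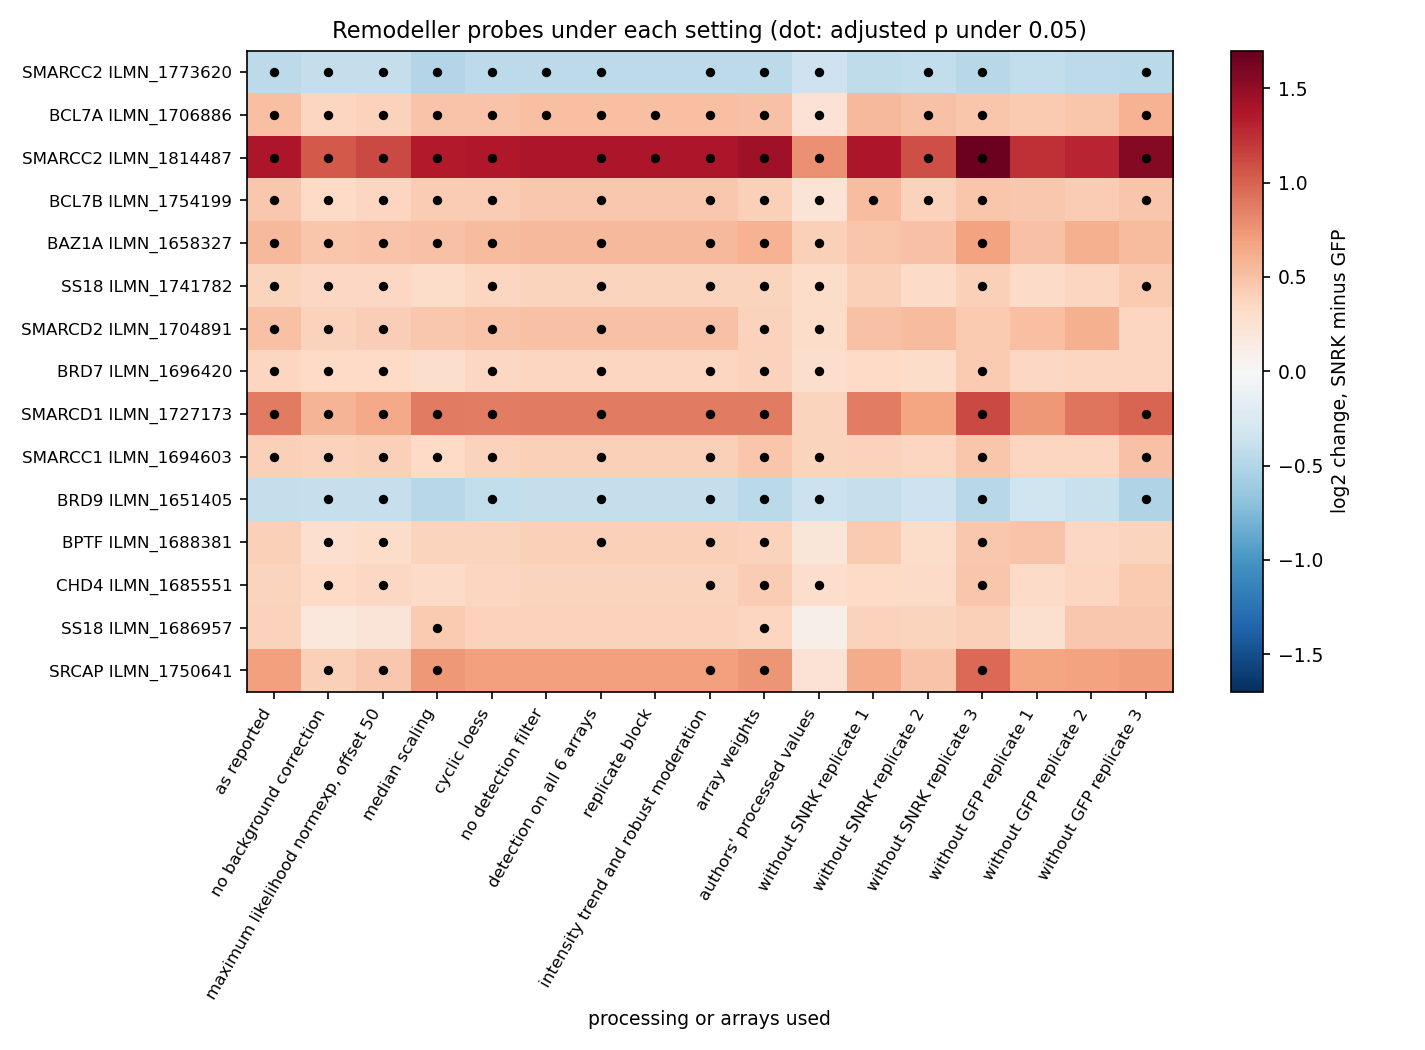
Log2 change (SNRK minus GFP, colour) of the 10 remodeller probes past the threshold and the 5 nearest outside it (y axis) as reported and under each alternative processing or left-out array (x axis). A dot marks an adjusted p under 0.05, and the columns without GFP replicate 1 and without GFP replicate 2 hold no dot.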

How the data were processed

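The authors deposited 1 table that gives, for 48701 probes on 6 arrays, the linear bead intensity and a detection p. The deposited intensity is unnormalized, per the file headers. The deposited detection p-value was taken, as is usual for these arrays, to compare each signal with negative controls of its array. A second deposited table holds processed intensity values rounded to whole numbers, with a median of 170 on every array. Per the submitters' processing notes, lumi was used, with the version, the steps and the background handling not given in the sources used here. The number of arrays limits the precision.

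With limma 3.58.1 in R 4.3.3, intensities were corrected and normalized by neqc (offset 16), and probes with detection p under 0.01 on all 3 arrays of a group were fitted with lmFit and eBayes, the group being the only term. Tests are two-sided, adjusted by Benjamini-Hochberg over 14964 probes, and intervals cover 95%. The fit was tested on simulated data with noise independent between probes and arrays. That test cannot show how the fit deals with deviations shared by many probes of an array. No columns were left unused. Of 45 targets, 44 carry current RefSeq symbols and PB1 is an older one. Named are all probes that passed, other kept probes of their genes, all ATPases and the 6 partners of smallest p. Other members were named to account for each. Members and lists were chosen with earlier results of these data known.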

Additional observations from a re-analysis of the deposited data

How the results depend on the processing

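Over the fits with 1 array left out, 124 to 1399 of all kept probes were higher and 172 to 1263 lower, and 0 to 11 remodeller probes were higher and 0 to 3 lower. The median log2 change of the remodeller probes ran from 0.02 to 0.06 in those fits. Without the detection filter, which puts 48701 probes under the adjustment, 349 probes were higher and 320 lower, and 1 remodeller probe was higher. With array weights 2193 were higher and 2073 lower, with 15 and 7 among remodellers. Lower remodeller probes numbered 5 without background correction, 3 with maximum likelihood background, 2 with cyclic loess and 2 with detection on all 6 arrays. They numbered 5 with trend and robust moderation and 7 on the authors' processed values, against 1 as reported. Over all kept probes, 1234, 1235, 982, 884, 1314 and 1059 were lower in these settings, in the same order, against 907 as reported. The causes were not tested. The labels do not say whether same-numbered arrays were paired. Their deviations from the group mean correlated at -0.06, -0.13 and -0.30, and those of differently numbered arrays at -0.21 to 0.29. These values cannot settle the pairing. With the replicate block 374 probes were higher and 357 lower, and 2 and 0 among remodellers. Over 59 named probes and 942 results under alternatives, 110 lost a call, 52 gained one and 0 turned direction while called. Only probes called as reported could lose a call, so the 110 are not a share of the 942. Among those probes, calls held under 7 (SMARCD2) to 16 (MTA1) of 16 alternatives.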
